A study of Rattus norvegicus with 20 samples.

Results

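The miRNAs described here are those of the rat array that are known from leukocytes and inflammation. The names sought were miR-142-3p, miR-142-5p, miR-146a, miR-146b, miR-150, miR-155 and miR-223. Of these 7, 6 were among the 348 miRNAs carried under the same name by all array files, and miR-155 was not analysed here. The 6 members were followed on 20 single-color Agilent rat miRNA arrays, 10 of soleus muscle, a slow muscle of the calf, and 10 of dorsal root ganglia (DRGs), the clusters of sensory neurons that send axons into the sciatic nerve. All tissue came from male Sprague-Dawley rats, adult at surgery, and each tissue was represented by 1 array of the sham operation control and by 3 arrays of each injury. In the denervation group the sciatic nerve had been cut, with the proximal stump tied off and turned away so that it could not regrow, 6 months before. In the entrapment group a silastic tube that did not constrict the nerve had surrounded it for 6 months. In the decompression group such a tube was taken off after 6 months of entrapment and the rats were followed for a further 3 months, so these rats were also older and had been operated on again. Groups comprised 3 rats by the methods, and whether the sham array of a tissue holds RNA of a single rat or of several is not given. The p-values below measure only the spread between these arrays.

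A miRNA is cut as a short duplex from a hairpin precursor, and the strand that is loaded into an Argonaute protein guides it to messenger RNAs through its seed, bases 2 to 8. miR-142 is made in nearly all blood-forming cells and in few others, and both strands of its hairpin accumulate. miR-223 belongs to neutrophils, monocytes and macrophages, and miR-150 to mature lymphocytes. miR-146a is induced by NF-kappaB, the transcription factor of inflammatory signalling, and acts back on it through Traf6 and Irak1. Its relative miR-146b shares its seed, and both are also made by cells that are not leukocytes. After a nerve is cut, macrophages are known to enter the nerve and the ganglion. In RNA from whole tissue, fewer leukocytes and less of a miRNA per leukocyte cannot be told apart.

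RefSeq held the mature sequence of 5 of the 6 members on the rat build GRCr8, and these are shown because the seed tells which members can reach the same messenger RNAs. The seed is in capitals, and each sequence runs from 5′ to 3′.
rno-miR-142-3p: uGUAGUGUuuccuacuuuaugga
rno-miR-142-5p: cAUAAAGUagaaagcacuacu
rno-miR-146a: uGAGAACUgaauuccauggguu
rno-miR-146b: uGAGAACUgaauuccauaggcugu
rno-miR-223: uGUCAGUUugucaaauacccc
The seed GAGAACU was common to miR-146a and miR-146b, and no other seed was shared among the 5. Over the 22 bases of miR-146a, miR-146b differed from it at 2 positions, G18A and U21C, with the miR-146a base first and positions counted from 1 at the 5′ end, and it was 2 bases longer. Cross-hybridization between these close relatives was not tested. The arms of miR-142 lie on the plus strand of chromosome 10, miR-142-5p at chr10:73055119-73055139 and miR-142-3p at chr10:73055155-73055177, inside a hairpin gene of 87 bases that overlaps the protein-coding gene Tspoap1. Mir146a lies at chr10:28349996-28350090 within a lncRNA gene, and Mir146b at chr1:255144860-255144947 within the gene C1h10orf95. Mir150 lies at chr1:104741487-104741571. Mir223 lies at chrX:65151383-65151492 within a lncRNA gene, 2930 bases from Vsig4, which encodes a receptor of macrophages. The gene table gives neither exons nor strands of the overlapping genes.

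The array software reports for each miRNA a total signal, an intensity summed over its probes after background subtraction, and calls it detected or not. Here each array was divided by its own 75th percentile and brought back to the typical brightness of the tissue, and a value so obtained is called a scaled signal. The software's own error on the members, where detected, was 7.21% to 17.6% of the signal in DRGs and 7.14% to 26.3% in soleus. Before scaling, the 75th percentile spanned 6.2-fold among the soleus arrays, from 409 on the sham array to 2540 on a denervation array, against 1.62-fold among the DRG arrays. Tests used limma on log2 scaled signals over all arrays of a tissue with Benjamini-Hochberg adjustment over all miRNAs tested, 173 in soleus and 219 in DRGs, and a call means an adjusted p under 0.05. For comparisons with sham, a 2-fold difference on each of 3 arrays is given as well. The tissues were as labelled. In soleus the summed scaled signal of 5 muscle miRNAs was 59400 to 361000 per array and that of 5 neuronal miRNAs 14.3 to 49.1, with miR-124, miR-9 and miR-183 not detected on any array, while in DRGs the neuronal sum was 3140 to 3830 and the muscle sum 248 to 395. Array control features, which carry no miRNA, also differed between groups. These features were read without scaling. Of 45, 12 in soleus and 24 in DRGs had every sham and denervation array on one side of every entrapment and decompression array. Among the members, on scaled signals, this division was seen for miR-150 in soleus, where 14.5% of all tested miRNAs showed it. In DRGs it was seen for miR-146b and miR-150, where 34.2% of all did. The counts of control features and of miRNAs are thus unlike measures. The part of this division in the results was not tested.

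In soleus, miR-223 was higher after denervation than on the sham array, and miR-142-5p was lower after entrapment and after decompression. No other member passed limma's threshold against sham. The scaled signal of rno-miR-223 was 69.90 on the sham array, 162.3, 258.7 and 131.7 on the denervation arrays, 93.71, 66.60 and 98.00 on the entrapment arrays, and 80.39, 90.19 and 75.60 on the decompression arrays. The denervation arrays thus lay above the other 7 without overlap, and sham fell among the entrapment arrays. The log2 difference from sham was 1.34 (SE 0.43, adjusted p = 0.0485) after denervation, a 2.53-fold difference, 0.28 (adjusted p = 0.663) after entrapment and 0.23 (adjusted p = 0.719) after decompression. Between injury groups, miR-223 was lower after decompression than after denervation by 2.16-fold (log2 difference -1.11, SE 0.31, adjusted p = 0.0408). The like difference of entrapment from denervation did not pass (log2 difference -1.06, SE 0.31, adjusted p = 0.0537). In order of mean scaled signal the groups stood as denervation (184 ± 66.3, SD, n = 3), entrapment (86.1 ± 17.0), decompression (82.1 ± 7.44) and sham, and between the last 3 no difference passed. The call against sham was lost without denervation 1 (adjusted p = 0.0714), without denervation 2 (adjusted p = 0.0967) and without both (adjusted p = 0.0925), and that against decompression was lost without each of the 6 arrays concerned except denervation 3 (adjusted p of 0.0603 to 0.153).

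Both arms of miR-142 were highest on the soleus sham array. The scaled signal of rno-miR-142-3p was 410.6 on sham, 163.3, 306.9 and 157.4 after denervation, 166.2, 137.1 and 209.7 after entrapment, and 198.1, 210.7 and 107.3 after decompression. The 9 injury arrays overlapped freely among groups and all lay below sham. The log2 differences from sham were -1.05 (SE 0.53, adjusted p = 0.177), -1.29 (adjusted p = 0.1) and -1.32 (adjusted p = 0.0931) for denervation, entrapment and decompression, and none passed. The other arm, rno-miR-142-5p, had a scaled signal of 54.69 on sham. It was 17.05, 29.65 and 10.24 after denervation, 14.45, 11.13 and 16.13 after entrapment, and 17.62, 11.05 and 7.136 after decompression, and it was not detected on denervation 3, entrapment 3, or decompression 2 and 3. Again the sham array stood above all others, and the injury groups overlapped. miR-142-5p was 3.98-fold lower than sham after entrapment (log2 difference -1.99, SE 0.63, adjusted p = 0.0432) and 4.90-fold lower after decompression (log2 difference -2.29, SE 0.63, adjusted p = 0.0249), and on each of these 6 arrays it was more than 2-fold lower. Since 1 of 3 entrapment arrays and 2 of 3 decompression arrays did not detect it, these folds rest in part on values not above background. The difference after denervation, -1.66 on the log2 scale, did not pass (adjusted p = 0.0884), but did without denervation 2 (adjusted p = 0.0383). The call for entrapment was lost when any of the 3 entrapment arrays was left out (adjusted p of 0.07 to 0.104), and that for decompression without decompression 3 (adjusted p = 0.0538).

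In soleus miR-146a, miR-146b and miR-150 did not pass in any comparison with all arrays in. rno-miR-146a had scaled signals of 102.2 on sham, 160.2, 214.6 and 131.7 after denervation, 101.8, 101.4 and 99.96 after entrapment, and 116.0, 97.93 and 87.42 after decompression. The denervation arrays again lay above the rest, with log2 differences of 0.70 from sham (adjusted p = 0.187) and of -0.71 for entrapment against denervation (SE 0.26, adjusted p = 0.127). rno-miR-146b was near the limit of detection, with 11.12 on sham, where it was not detected, 33.02, 52.33 and 10.04 after denervation, 16.09, 17.10 and 14.89 after entrapment, and 13.43, 14.93 and 14.96 after decompression. It was also not detected on denervation 3 and decompression 2. Its log2 difference from the sham array's value was 1.22 after denervation, where 2 of 3 arrays detected it (adjusted p = 0.241). Without denervation 3, on which the denervation signals were lowest, miR-146b passed against sham (log2 difference 1.90, adjusted p = 0.00431), and both miR-146a and miR-146b passed against entrapment (adjusted p = 0.0363 and 0.0086 for entrapment minus denervation) and against decompression (adjusted p = 0.0263 and 0.0055). rno-miR-150 had 183.1 on sham, 179.7, 203.8 and 197.2 after denervation, 97.24, 143.8 and 148.9 after entrapment, and 162.1, 151.0 and 138.4 after decompression. Each sham and denervation array was above each entrapment and decompression array, and entrapment differed from denervation by -0.60 on the log2 scale (SE 0.25, adjusted p = 0.179). The study, with its own normalization and a 2-fold rule, lists miR-150 as lower than sham in soleus after entrapment and after decompression. Here these log2 differences were -0.52 and -0.29 (limma, adjusted p = 0.295 and 0.565), in the same direction but not called.

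**Figure D1:**
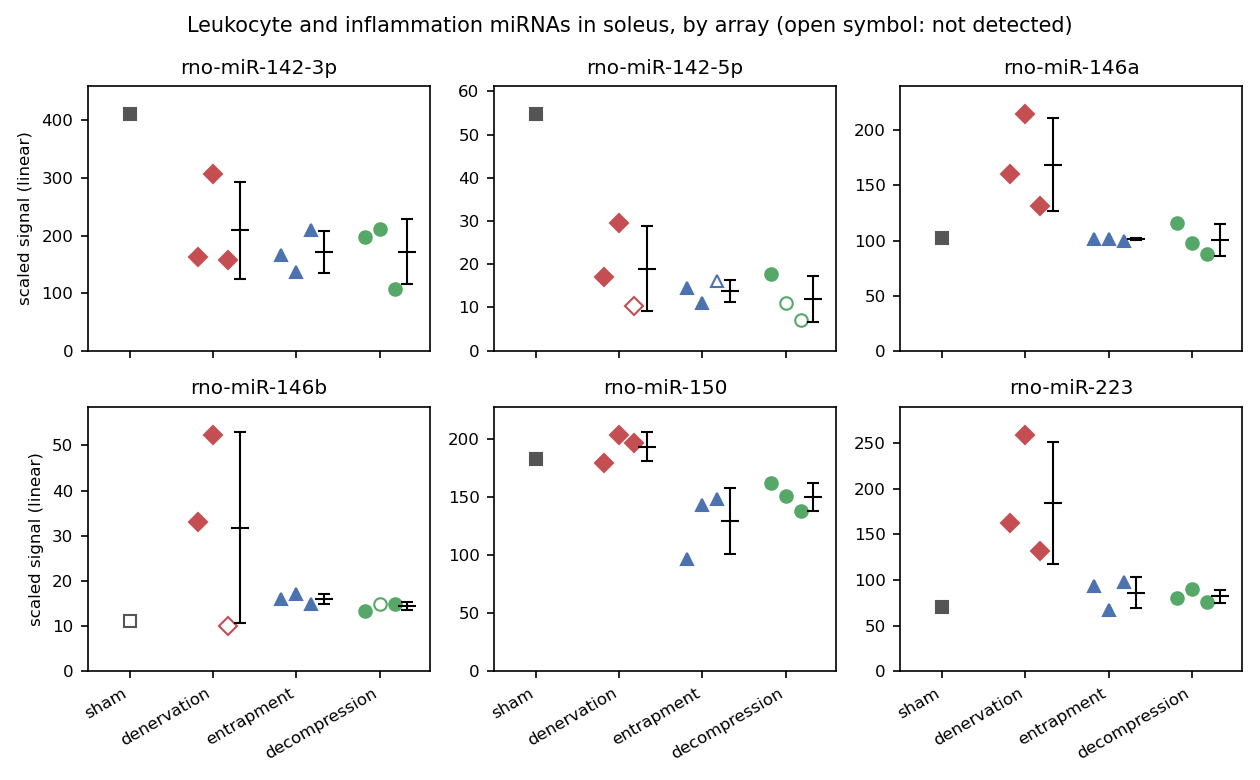
Scaled signal (linear axis from 0) of each of the 6 members on every soleus array by group, with open symbols where the miRNA was not detected and the mean ± SD of 3 arrays in black beside each injury group. For miR-223 and miR-146a the denervation arrays are the highest, and for both arms of miR-142 the sham array is.

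Counted against all miRNAs, 1 of 6 members was called between denervation and sham in soleus, where limma called 26.6% of the 173 tested. The count was 1 of 6 for entrapment against a background of 29.5%, and 1 of 6 for decompression against 31.8%. By the 2-fold rule the members counted 0, 1 and 1, beside 34.1%, 38.2% and 40.5% of all. Between entrapment and denervation limma called 0 members and 11.6% of all (at an unadjusted p under 0.05, 3 members and 40 of 173 miRNAs), and between decompression and denervation 1 member and 13.9%. Between decompression and entrapment limma called 0 members and 0% of all, and at an unadjusted p under 0.05 the numbers were 0 members and 7 miRNAs. The median log2 difference of the members was 0.39 for denervation, -0.27 for entrapment and -0.16 for decompression against sham, beside -0.07, -0.37 and -0.25 over all miRNAs tested.

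Differences from sham in soleus moved with the scaling. The sham array was the dimmest by its 75th percentile, at 409.4, and denervation 3 was nearly as dim, at 413.2. With no scaling the median of all miRNAs after denervation lay 1.32 above sham on the log2 scale, and with the processed values 1.69 above. The 46 miRNAs called there, 20 higher and 26 lower, became 10 higher and 0 lower with no scaling, and the 20 called lower and 0 higher between entrapment and denervation became 15 lower and 19 higher with the percentile over all miRNAs. miR-223 after denervation was above sham under all 6 other scalings, by 1.34 to 3.28 on the log2 scale. Its call was lost with no scaling (adjusted p = 0.126), with the processed values (adjusted p = 0.358), where 0 of all miRNAs were called, with no filter (adjusted p = 0.072) and with a replicate block (adjusted p = 0.14). miR-142-3p after denervation was below sham under 4 of them and above it with no scaling and with the processed values, over a range of -1.06 to 0.89. miR-142-5p after entrapment was below sham under 5 of 6, from -1.78 to 0.20, and after decompression under 6 of 6, from -2.15 to -0.86. Of these 6 scalings only the median kept either call, and the other adjusted p were 0.198 to 0.95 after entrapment and 0.0958 to 0.987 after decompression.

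**Figure D2:**
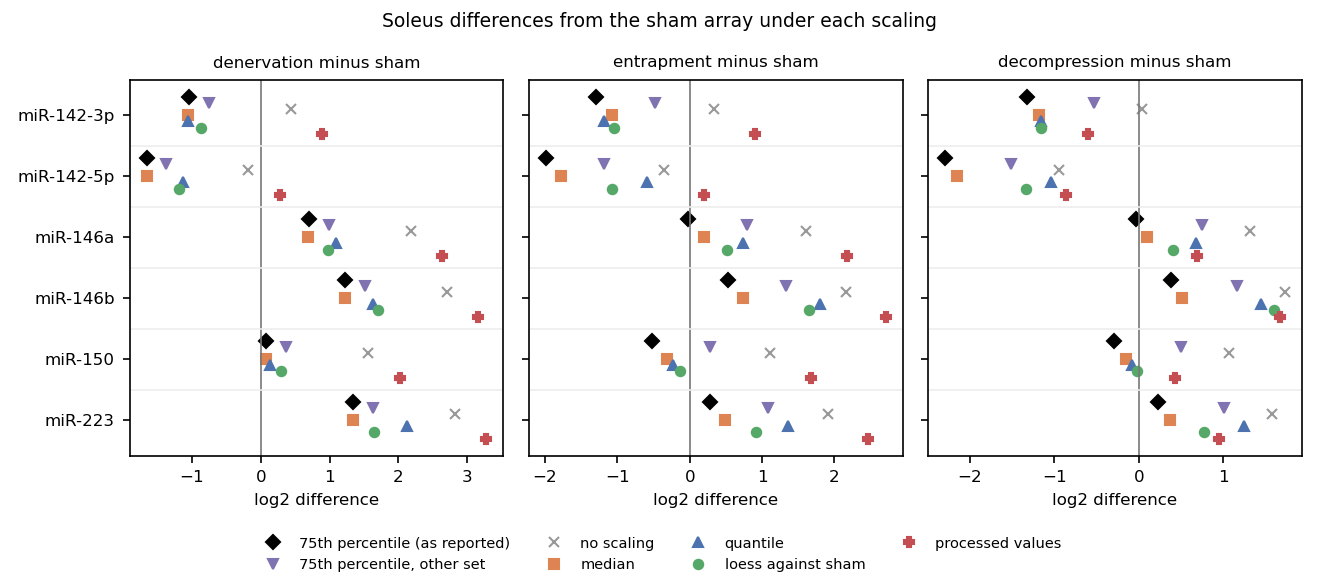
Log2 difference from the sham array (horizontal axis) of each member in soleus for the 3 injury groups, as reported (black) and under 6 other scalings, each point being the mean of 3 arrays minus the 1 sham array. The points of a member spread over up to 2 log2 units or slightly more. Both miR-142-3p and miR-142-5p stay to the left of miR-223 under every scaling. Dividing an array by 1 number cannot change that order, so only quantile normalization and loess could have done so.

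The difference between 2 members on the same array does not depend on dividing an array by 1 number. It was compared only between groups, since probes differ in how brightly they report their miRNA. In soleus, log2 miR-223 minus log2 miR-142-3p was -2.55 on the sham array, -0.01, -0.25 and -0.26 after denervation, -0.83, -1.04 and -1.10 after entrapment, and -1.30, -1.22 and -0.51 after decompression. All 9 injury arrays lay above sham, and denervation lay above both other injuries without overlap. The mean was -0.17 ± 0.14 (SD, n = 3) after denervation, -0.99 ± 0.14 after entrapment and -1.01 ± 0.44 after decompression. Entrapment differed from denervation by -0.82 and decompression by -0.84 (two-sided exact permutation p = 0.10 each, the smallest that 3 against 3 arrays allow, 0.60 after adjustment over 30 such tests). For miR-146a minus miR-142-3p the sham array was again lowest at -2.01, and the injury arrays ranged from -1.11 to -0.03. The reverse held for miR-142-3p minus miR-150, 1.16 on sham and -0.37 to 0.77 on the injury arrays. In miR-223 minus miR-150, a pair without miR-142-3p, sham was lowest too, at -1.39 against -1.11 to 0.34 on the injury arrays. Here decompression differed from denervation by -0.75, without overlap (two-sided exact permutation p = 0.10, adjusted 0.60). Of the 30 tests over both tissues, 5 had groups that did not overlap. Thus the sham array differed from every injury array in each of these ratios, with and without miR-142-3p. A difference from 1 array carries no test. The arms of miR-142 varied less against each other on the arrays that detected both, though the sham array was again lowest. miR-142-3p minus miR-142-5p was 2.91 on sham and 3.26 to 3.62 on the 5 injury arrays that detected both. The remaining injury arrays, on which miR-142-5p was too dim to be detected, give no value, so the spread over all arrays is not known.

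**Figure D3:**
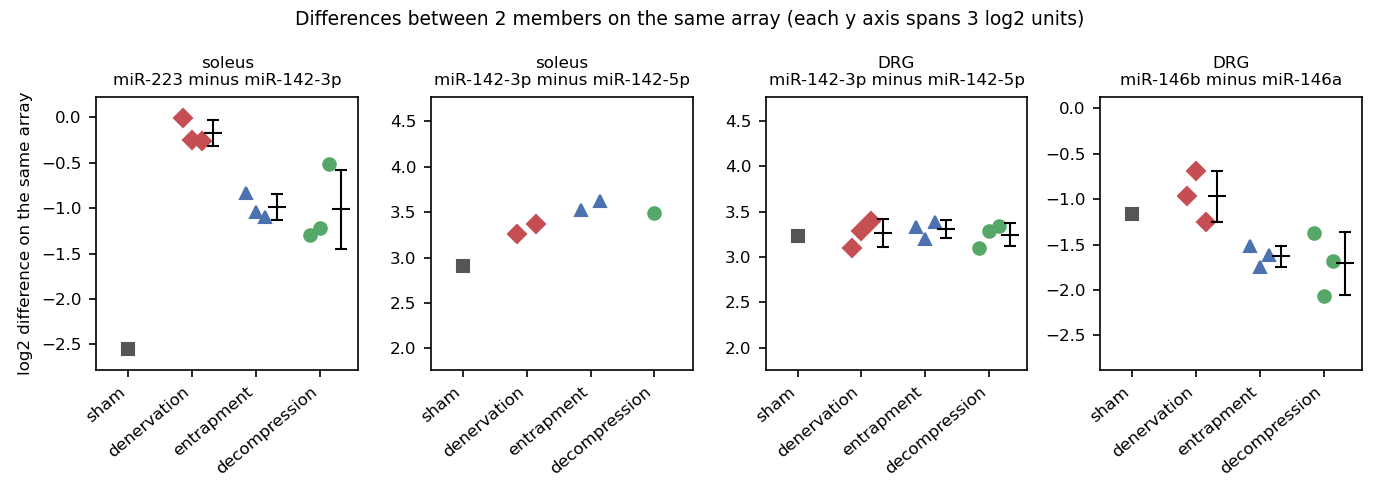
Log2 difference between 2 members on the same array (vertical axes, each spanning 3 log2 units) for 2 pairs in soleus and 2 in DRGs, 1 point per array on which both were detected and the mean ± SD where a group has 3. The soleus sham array lies apart at -2.55 for miR-223 minus miR-142-3p. The arms of miR-142 vary less where both were detected, with sham lowest in soleus. In DRGs miR-146b minus miR-146a is lower after entrapment and decompression.

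In DRGs all 6 members were detected on all 10 arrays, and limma made its calls between the injuries and 0 against sham. The group names of the DRG arrays of entrapment and decompression are in doubt. The scanner files, followed here, and the authors' table of processed values name these 6 arrays the opposite way, and if the table is right, what follows for entrapment in DRGs belongs to decompression and the reverse. After entrapment, miR-142-3p, miR-142-5p, miR-146b and miR-150 were lower than after denervation, and after decompression miR-146b was. With the table's names and values it was decompression that lay lower for miR-142-3p (log2 difference from denervation -0.75, adjusted p = 0.0234), and entrapment did not pass (-0.21, adjusted p = 0.444). miR-146b was called lower in both groups under either naming. The scaled signal of rno-miR-146b was 56.62 on sham, 77.78, 92.68 and 86.66 after denervation, 34.74, 37.74 and 49.05 after entrapment, and 48.10, 37.00 and 40.87 after decompression. Denervation stood above sham, and sham above all 6 arrays of entrapment and decompression. miR-146b was 2.13-fold lower after entrapment than after denervation (log2 difference -1.09, SE 0.15, adjusted p = 0.000658) and 2.05-fold lower after decompression (log2 difference -1.03, SE 0.15, adjusted p = 0.000943). These 2 calls held under all 10 alternatives tried and without each of the 6 arrays concerned in turn, with log2 differences of -1.54 to -0.45 and of -1.47 to -0.38 over the scalings. The DRG arrays divided in the same way by brightness and by detection. The 75th percentile was 97.5 to 117 on sham and denervation arrays, and 72 to 88.1 on those of entrapment and decompression. Detected miRNAs numbered 213 to 233 and 183 to 200. The part of this division in the calls for miR-146b was not tested. Against sham the differences of miR-146b were 0.59 for denervation (adjusted p = 0.217), -0.50 for entrapment (adjusted p = 0.129) and -0.44 for decompression (adjusted p = 0.17), and none passed.

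Its close relative rno-miR-146a varied less, at 126.7 on sham, 151.4, 149.0 and 206.3 after denervation, 99.33, 126.7 and 149.8 after entrapment, and 137 ± 16.1 (SD, n = 3) after decompression. The groups overlapped, and entrapment against denervation did not pass (log2 difference -0.43, SE 0.18, adjusted p = 0.095). On the same array, miR-146b minus miR-146a was -1.16 on sham, -0.96, -0.69 and -1.25 after denervation, -1.52, -1.75 and -1.61 after entrapment, and -1.37, -2.07 and -1.68 after decompression. Entrapment lay below denervation by 0.66 on average and decompression by 0.74, without overlap (two-sided exact permutation p = 0.10 each, adjusted 0.60). This pair was added after its values had been seen.

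The arms of miR-142 moved together in DRGs. rno-miR-142-3p had scaled signals of 576.1 on sham, 405.8, 526.3 and 726.2 after denervation, 418.3, 332.7 and 261.0 after entrapment, and 503.7, 419.9 and 536.1 after decompression. For rno-miR-142-5p they were 61.41 on sham, 47.41, 53.83 and 68.60 after denervation, 41.47, 36.30 and 24.92 after entrapment, and 58.59, 42.86 and 52.96 after decompression. The entrapment arrays were lowest for miR-142-5p, while for miR-142-3p the highest of them, 418.3, exceeded the lowest denervation array. Entrapment was below denervation by 1.62-fold for miR-142-3p (log2 difference -0.70, SE 0.24, adjusted p = 0.0472) and by 1.67-fold for miR-142-5p (log2 difference -0.74, SE 0.22, adjusted p = 0.0287). Across the 10 arrays the log2 signals of the arms correlated at Pearson r = 0.967, a description of arrays that share groups and scaling. The difference between them was 3.26 ± 0.15, 3.31 ± 0.10 and 3.25 ± 0.12 (SD, n = 3) in the injury groups and 3.23 on sham. After decompression both arms were above entrapment on every array, by log2 differences of 0.55 and 0.61, which did not pass (adjusted p = 0.92 each). These calls were less firm than that of miR-146b, since 3 of 10 alternatives kept the one for miR-142-3p and 5 of 10 that for miR-142-5p, and leave-outs of single arrays took both below the threshold. The call for miR-142-3p was lost without denervation 2 or 3 or entrapment 2 or 3 (adjusted p of 0.0939 to 0.151), and that for miR-142-5p without denervation 2 or 3 or entrapment 3 (adjusted p of 0.063 to 0.0994).

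rno-miR-150 had scaled signals of 64.08 on sham, 61.22, 60.39 and 68.48 after denervation, 39.90, 46.53 and 49.19 after entrapment, and 56.89, 45.44 and 57.48 after decompression. Entrapment was 1.40-fold below denervation (log2 difference -0.49, SE 0.12, adjusted p = 0.0151), without overlap. The call was kept by 8 of 10 alternatives and lost without denervation 3 (adjusted p = 0.0553). With median scaling this difference turned to 0.15. rno-miR-223, the member that differed in soleus, had 197.6 on sham, 165.3, 195.4 and 245.3 after denervation, 148.5, 152.1 and 148.2 after entrapment, and 144.9, 220.7 and 316.5 after decompression. Sham lay among the denervation arrays, the decompression arrays spread over more than the whole range of the others, and no comparison of miR-223 passed in DRGs.

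**Figure D4:**
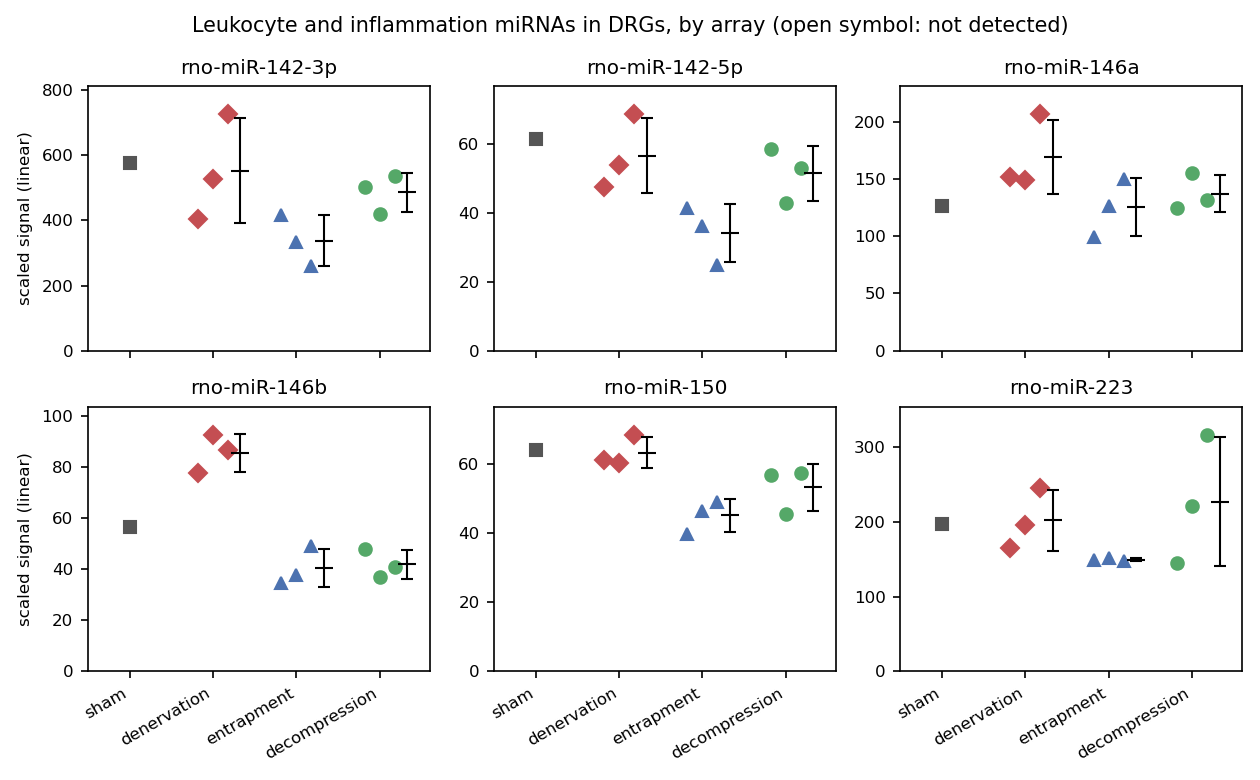
Scaled signal (linear axis from 0) of each of the 6 members on every DRG array by group, with the mean ± SD of 3 arrays in black beside each injury group. miR-146b separates denervation from the other injuries, and the arms of miR-142 share a profile, lowest on the arrays that the scanner files name entrapment and the processed table decompression.

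Against the background in DRGs, 4 of 6 members were called between entrapment and denervation, all lower, where 41.1% of 219 miRNAs were called, and 1 of 6 between decompression and denervation, where 36.5% were. The median log2 difference of the members was -0.59 and -0.20 in these comparisons, beside -0.15 over all miRNAs in both. The balance of all calls between entrapment and denervation, 18 higher and 72 lower, moved with the scaling to 126 and 24 with the median, where the median of all miRNAs rose to 0.49, and to 51 and 38 with quantile normalization. miR-146b was called lower under each of these. Against sham limma called 0 members in each injury, beside 0.457% of all for denervation, 19.6% for entrapment and 18.3% for decompression, and at an unadjusted p under 0.05 the members counted 1, 4 and 0, beside 34, 81 and 81 of 219 miRNAs. The 2-fold rule also called 0 members, beside 1.37%, 11% and 13.7% of all. Between decompression and entrapment limma called 0 members and 0% of all, with 1 member, miR-142-5p, and 9 miRNAs at an unadjusted p under 0.05.

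On a scale shared by both tissues, set on the 102 miRNAs detected on all 20 arrays, 5 members were higher in DRGs than in soleus and miR-150 was lower. All 6 were called, beside 81.6% of the 234 miRNAs tested. By the methods, DRGs and muscles came from the rats of each group, so the tissues may share rats. Which arrays share a rat is not given. The fit took all 20 arrays as independent, and its p-values leave any such pairing out. The log2 difference of DRGs from soleus was 2.21 for rno-miR-146b (SE 0.25, adjusted p = 9.94e-07), 1.82 for rno-miR-142-5p, 1.59 for rno-miR-142-3p, 1.45 for rno-miR-223 and 0.75 for rno-miR-146a. For rno-miR-150 it was -1.05 (SE 0.10, adjusted p = 1.59e-07). The lymphocyte miRNA was thus the member that went the other way, with scaled signals of 78.6 to 170 on the soleus arrays and 50.4 to 72.1 on the DRG arrays, and it did so under all 4 other scalings, by -2.15 to -1.18. For miR-146a the direction depended on the scaling, turning to -0.05 with the percentile over all miRNAs and to -0.07 with quantile normalization. For miR-142-5p the difference fell to 0.35 with quantile normalization and was not called (adjusted p = 0.198). The median difference over all miRNAs, 1.03 here, moved to between -0.07 and 0.85 under other scalings, so levels across tissues are relative to it.

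**Figure D5:**
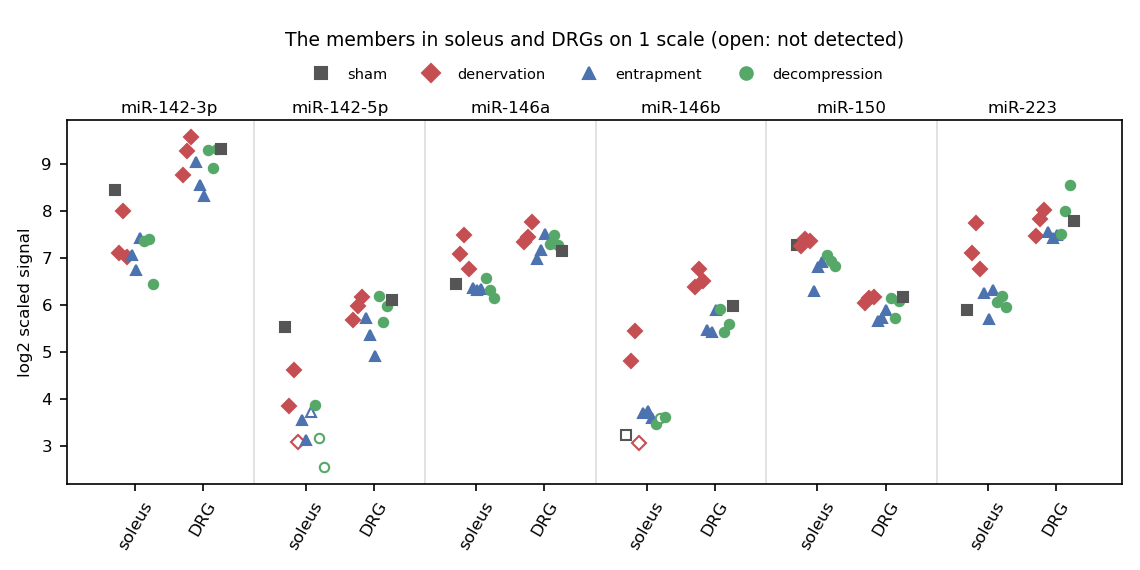
Log2 scaled signal of each member on the 10 soleus and 10 DRG arrays on 1 scale, with groups by color and symbol and open symbols where not detected. miR-150 is the member with every soleus array above every DRG array.

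The difference of an injury from sham could also be compared between tissues, in the same fit and with the arrays again taken as independent. For decompression it was higher in DRGs than in soleus for miR-142-5p by 2.18 on the log2 scale (SE 0.76, adjusted p = 0.0451), 1 of 6 members beside 27.4% of all miRNAs. For denervation and for entrapment limma called 0 members, beside 23.5% and 27.4%, and at an unadjusted p under 0.05 the numbers were 1 member (miR-223, log2 difference -1.33, adjusted p = 0.107) and 72 of 234 miRNAs for denervation, and 0 members and 85 miRNAs for entrapment. In soleus 2 of 3 decompression arrays did not detect miR-142-5p, so its difference between tissues is inexact.

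Blood left in the tissue carries leukocytes, so the red blood cell miRNAs miR-144 and miR-451 were read beside the members. In soleus, the scaled signal of miR-144 was 432.7 on sham, 102.9, 215.8 and 24.9 after denervation, 56.91, 87.43 and 122.3 after entrapment, and 187.3, 28.63 and 28.68 after decompression. Like both arms of miR-142, it was highest on the sham array, and it was lower than sham on all 9 injury arrays by over 2-fold, with adjusted p of 0.192, 0.197 and 0.107. miR-451 did not stand apart on sham, at 811.2 against 178.2 to 2167 on the injury arrays. The sum of the 2 was 1240 on sham, 231 to 2380 after denervation, 494 to 855 after entrapment and 207 to 1260 after decompression. In DRGs the sum was 3000 on sham, 686 to 1550 after denervation, 873 to 2870 after entrapment and 1410 to 4240 after decompression, with 0 of 2 called in any comparison of injury groups. The part of blood in the members' signals was not tested.

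The endothelial miRNAs, from the pair of strands of the miR-126 hairpin, were lowest on the soleus sham array, where the miR-142 arms were highest. miR-126 had a scaled signal of 379 on sham, 1190 ± 177 (SD, n = 3) after denervation, 1440 ± 331 after entrapment and 1460 ± 262 after decompression, with log2 differences from sham of 1.64, 1.90 and 1.93 (adjusted p = 0.0143, 0.0085 and 0.00584). Its partner miR-126* fell below detection on sham alone. With the lowest signal detected on the sham array, 6.78, as the bound, miR-126* was at least 15-fold higher after denervation, 7.33-fold after entrapment and 7.55-fold after decompression. The limma fit used the sham array's value floored at 2.86, not this bound, and gave adjusted p = 4.96e-05, 6.78e-05 and 6.22e-05. In DRGs, miR-126* had 64.9 on sham, 64.3 ± 4.09 after denervation, 20.2 ± 1.75 after entrapment and 20.3 ± 0.38 after decompression, the same division of groups as miR-146b, while miR-126 stayed between 474 and 611. Its part in the result for miR-146b was not tested. A wider list of 17 miRNAs with known roles in immune responses but made by many cell types had 13 tested in soleus, of which 1 was called higher and 2 lower after denervation, 2 and 2 after entrapment, and 2 and 4 after decompression, against sham, beside the 26.6%, 29.5% and 31.8% of all miRNAs. In DRGs, where 15 were tested, 2 were higher and 6 lower after entrapment than after denervation, and 2 and 5 after decompression, beside 41.1% and 36.5% of all. Against sham 1 was higher and 0 lower after denervation, and 1 and 3 after each of the other injuries. Beside these stood 0.457% of all for denervation, which was that 1 miRNA alone, 19.6% for entrapment and 18.3% for decompression. Of 3 fibroblast miRNAs 0 were called in DRGs, while in soleus 1 was higher than sham in each injury and 1 lower after decompression. Of 2 miRNAs of myelinating glia 1 was lower after entrapment than after denervation and 1 higher than sham after entrapment in DRGs, and 1 was lower than sham after denervation in soleus. Of 5 neuronal miRNAs in DRGs, 3 were higher and 1 lower than after denervation in entrapment and in decompression alike, the lower one being miR-9, which the immune list also holds (log2 differences -1.33 and -1.35). The part of these lists in the members' results was not tested.

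Over the 10 arrays of a tissue, the miRNAs whose log2 scaled signals were most like those of a member were found by Pearson's r among those detected on all 10, as a description, since the arrays share groups, scaling and brightness. In soleus, the members miR-146a and miR-223 correlated with each other at 0.93, and both had miR-347 and miR-29a* as nearest others (0.821 and 0.785 for miR-146a, 0.732 and 0.819 for miR-223). miR-142-3p was nearest to miR-494 (0.775) and to the red blood cell miR-144 (0.751), and miR-150 to miR-212 (0.844) and miR-145 (0.822). miR-142-3p itself correlated with miR-223 at only 0.222. In DRGs both arms of miR-142 were nearest to miR-20a (0.856 for miR-142-3p, 0.899 for miR-142-5p) and miR-19b (0.71 and 0.818), which come from the miR-17-92 cluster. miR-146a was nearest to let-7f (0.852) and miR-98 (0.842), which belong to the let-7 family, and miR-146b to miR-352 (0.957) and miR-409-5p (0.949). miR-150 was nearest to miR-376b-5p (0.903) and miR-409-5p (0.896), and miR-223 to miR-30d (0.737) and miR-1 (0.72).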

How the data were processed

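Per the labels, total RNA of soleus and DRGs was labelled with Cy3 and hybridized to Agilent rat miRNA arrays. The authors deposited a scanner file for each array with an unnormalized intensity per miRNA (total gene signal, Agilent Feature Extraction 9.5.3), its error and a detection call. A second table that the authors deposited holds a processed signal, equal to that intensity over 1 constant per array, and served as an alternative. In soleus the constant was 100 on sham and on denervation 1 and 2, 38.69 on denervation 3, and 1222 on decompression 2. With these values limma called 0, 1 and 1 of all soleus miRNAs against sham after denervation, entrapment and decompression. A call of a member lost there therefore tells little. In the DRGs the columns of this second table named for entrapment and decompression track the other group's arrays, and the labels of the scanner files were followed. The study's methods name rank-consistency LOWESS without settings. The array number, 1 sham per tissue, limits the precision.

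Of 350 miRNAs, 348 carried 1 name in all files. Arrays were scaled to their 75th percentile (over 108 miRNAs detected on all arrays in soleus, over all 348 in DRGs, over 102 for both tissues), floored at the median lowest detected signal (2.86, 2.28 and 2.42) and log2-transformed. miRNAs detected on at least 3 arrays were tested with limma 3.58.1 in R 4.3.3, with a term for group (residual degrees of freedom 6 in each tissue and 12 over both), two-sided and adjusted by Benjamini-Hochberg at 0.05. The lone sham array is assumed to vary as the injury arrays do. Differences within arrays used exact permutation tests (scipy 1.17.1), and figures were drawn with matplotlib 3.10.9. Sequences and positions came from RefSeq (GRCr8). The miRNAs named were every member in every comparison, the 2 most correlated others for members detected on all 10 arrays, and the red blood cell and endothelial lists. Members and lists were chosen with earlier results of these data known. Alternatives were other scalings, filters, a pseudocount, a replicate block, the processed values and the omission of single injury arrays. Slide and scan batches could not be read from the files used here. The spinal segments were not analysed here.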

Additional observations from a re-analysis of the deposited data

Results flagged for a closer look

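The decompression difference from sham of miR-142-5p differed between tissues by 2.18 on the log2 scale in a test of the difference itself (limma, adjusted p = 0.0451). In soleus it was -2.29, with miR-142-5p detected on 1 of 3 decompression arrays, and in DRGs -0.27. The size is therefore inexact, and both rest on 1 sham array per tissue. With the percentile over all miRNAs, with no scaling and with quantile normalization this difference was no longer called. The DRG arrays used are those the scanner files name decompression, which the processed table names entrapment.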

How the results depend on the processing

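The 1 sham array per tissue and the 6.2-fold range of brightness in soleus limit the comparisons, and members near the detection limit (miR-142-5p and miR-146b in soleus) have only weak signals. The cause of the changes below was not tested. Members called in soleus against sham (1 each) fell to 0 with no scaling, the processed values, no filter and the replicate block in all 3 injuries. They fell to 0 for entrapment and decompression with the percentile over all miRNAs and with loess, and for denervation under the 2-fold rule. Asking for detection on all arrays left miR-142-5p, detected on 6 of 10 soleus arrays, untested. The count of 0 for entrapment and decompression there was thus fixed in advance. Leaving out denervation 1 and 2 together (added after seeing the data) left 1 denervation array, with miR-223 at 0.91 above sham on the log2 scale. With quantile normalization the count rose to 2 for denervation. There miR-223 and not miR-142-5p was the member called after entrapment (adjusted p = 0.0265) and decompression (adjusted p = 0.0277). Decompression against denervation (1) fell to 0 with the other percentile, no scaling, quantile, loess, the processed values, no filter, the replicate block and without denervation 1 and 2, and entrapment against denervation (0) rose to 1 when detection on all arrays was asked for, with the pseudocount and without denervation 1 and 2. In DRGs, entrapment against denervation (4) fell to 1 with median scaling and the processed values, and to 2 with quantile, loess and no filter. Decompression against denervation (1) rose to 5 with no scaling, 3 with the median and 4 with the processed values, whose columns are exchanged there, while the calls over all miRNAs went from 80 to 129, 154 and 92 of 219. Against sham (0), calls rose to 1 for denervation with quantile, to 1 for entrapment with the other percentile and the median and 4 with no scaling, and to 3 for decompression with the median. Between tissues, the decompression difference (1) fell to 0 with the other percentile, no scaling and quantile, and the denervation difference (0) rose to 1 with quantile. Leaving out each injury array gave 0 to 2 members for denervation against sham, 0 for entrapment and 0 to 1 for decompression in soleus, 0 to 3 for entrapment and for decompression against denervation there, 0 to 1 for entrapment against sham and 1 to 4 for entrapment against denervation in DRGs. The 3 members in soleus came without denervation 3.

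Directions turned for miR-142-5p after entrapment in soleus (0.20 with the processed values), miR-146b for entrapment against denervation in soleus (0.67 without denervation 1 and 2, a value against denervation 3 alone, on which it was not detected, with the spread taken from the other arrays), miR-146a after entrapment in DRGs (0.81 with the median), miR-150 in DRGs with the median (0.58 for decompression against sham, 0.15 and 0.40 for entrapment and decompression against denervation), and miR-146a between tissues (-0.050 with the percentile over all miRNAs and -0.073 with quantile). Median scaling moved the median of all DRG miRNAs after entrapment from -0.11 to 0.73. Beyond these, 107 values of single members changed sign with neither value called, and 25 more did so when single arrays were left out. Counts over all miRNAs moved over 1.5 times down in 31 and up in 14 alternatives and stayed within it in 94. With single arrays left out, these numbers were 7, 2 and 63. In soleus against sham the counts went from 46, 51 and 55 to 10, 21 and 12 with no scaling. In DRGs they went from 43 to 141 for entrapment against sham with the median. Correlations of same-numbered arrays ranged from -0.473 to 0.205 in soleus and from -0.122 to 0.481 in DRGs, where those numbered 1 reached 0.262 to 0.438, and since not all exceeded 0.1 the numbers were not taken to pair arrays. The replicate block called 3 members in DRGs between entrapment and denervation, without miR-142-3p (adjusted p = 0.0792).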
